A study of Mus musculus with 2 samples.

Results

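Notch receptors act inside the nucleus through Rbpj, and the 10 genes described here surround that step: Rbpj itself, its coactivators Maml1, Maml2 and Maml3, its corepressor Spen, the fringe glycosyltransferases Lfng, Mfng and Rfng, the O-fucosyltransferase Pofut1 and the Notch-binding protein Dtx1. They were taken by gene symbol, 10 of the 32285 features in the deposited count matrices, and each symbol matched 1 feature. The data are single-cell RNA counts from kidneys of newborn mice at P0, in 2 libraries that carry the same genotype label, Rbpj c/+ ; Foxd1cre/+. All cells therefore come from animals labelled with 1 conditional and 1 wild-type Rbpj allele and with Cre from the Foxd1 locus, which is active in stromal progenitors of the kidney. No library of another genotype was analysed, so nothing here measures an effect of the conditional allele. A 3' count does not tell the 2 Rbpj alleles apart, and the labels do not say which part of the gene the allele removes. The labels also do not say whether the libraries come from separate animals or from pools, so the spread between them may be technical.

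As background, a Notch receptor that binds a ligand on a neighbouring cell is cut, and its freed intracellular domain travels to the nucleus. There it joins Rbpj, which is bound to DNA, and a mastermind-like protein (Maml1, Maml2 or Maml3), and this complex recruits the machinery that transcribes target genes such as Hes1. Without Notch, Rbpj can hold corepressors, among them Spen. Before the receptor reaches the cell surface, Pofut1 adds fucose to the repeats of its extracellular part, and a fringe enzyme can extend that fucose, which changes the response to Delta-like and Jagged ligands. In the developing kidney the pathway is known for its part in patterning the early nephron and in building vessels and mesenchyme around the glomerulus.

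A barcode was kept as a cell when it held 3000 or more UMIs (unique molecular identifiers, each standing for 1 counted molecule) from 500 or more genes, with mitochondrial genes giving no more than 20% of them. That left 5529 barcodes in library 1 and 4206 in library 2, of which 245 and 142 were removed as doublets. Cells were then assigned to gates, that is, to cell types defined by the summed level of marker genes, and 18 gates had at least 20 cells in each library, 8358 of 9348 cells in all. Levels are counts per 1000000 UMIs (CPM) of the summed cells of a gate, given as library 1 and then library 2. Cells with defining markers of kidney cell types were found, such as Slc12a1 for the loop of Henle and Cdh5 for endothelium. These genes also set the gates, so their level there does not test what the gated cells are. Of the gates, 3 are named here by genes rather than by a cell type: Rgs5-Abcc9 mesenchyme and Ren1 mesenchyme, since their leading genes held more stromal or smooth muscle markers than markers of their own, and Ret-Wnt11 ureteric epithelium. The gate of other leukocytes was led by the neutrophil genes S100a8 and S100a9 and held only 38 and 42 cells. Erythroid cells, 29 and 51, gave almost no counts for most of the 10 genes. The libraries shared 6 cell barcodes.

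The upstream sequence of Lfng is shown because Lfng differed widely along the nephron (below) and because Rbpj reads DNA at the core sequence TGGGAA. The sequence is the 250 bases before the RefSeq start of Lfng on the forward strand of GRCm38.p6, at chr5:140607091-140607340, with TGGGAA or its reverse complement TTCCCA in capitals.

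Lfng: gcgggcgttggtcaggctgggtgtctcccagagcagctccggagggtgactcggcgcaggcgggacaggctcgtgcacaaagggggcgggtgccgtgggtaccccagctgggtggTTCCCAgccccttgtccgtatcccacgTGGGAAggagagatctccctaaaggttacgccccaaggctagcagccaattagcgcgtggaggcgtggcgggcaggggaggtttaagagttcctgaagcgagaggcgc

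The matches begin 135 and 108 bases before the start, and the nearer match is also one to the longer form GTGGGAA. The last 21 bases lie in an exon of Lfng in the GENCODE M21 annotation. RefSeq windows of 300 bases, from 250 before to 50 after the start, were available for 9 of the 10 members, and 5 of these 9 held TGGGAA on either strand: Lfng, Maml2, Maml3, Rbpj and Spen. By window, 6 of the 11 windows of these members held it, beside 25.6% of all 32851 windows. For Maml2 the match lay in a window inside the gene, and the window at its start had none. The Rbpj windows lay inside the gene and overlapped each other. The longer form was found for Lfng and Spen and in 6.38% of all windows. A match describes letters and not a bound site.

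The levels of all 10 genes in the 18 gates fall into 3 kinds. Mfng, Lfng and Dtx1 were near 0 in many gates and high in a few. Rbpj was counted in every gate and stood far above the others in macrophages. Maml1, Spen, Pofut1 and Rfng were counted in every gate over a narrower range, and Maml2 and Maml3 over a wide range with different highest gates. Each gate was set against the mean of the other gates in 1 edgeR fit over all genes, with Benjamini-Hochberg adjustment over 16728 genes. Of 179 tests on members, 37 were called higher and 19 lower at an adjusted p under 0.05, 31.3% in all. Over all genes and gates 34.1% were called, 23.7% higher and 10.4% lower, so the members' share lies near the background and is no result about them as a set. The median log2 fold change of the member tests was 0.05, and that of all tests 0.06. Within single gates the median of all genes ranged from -0.66 in erythroid cells to 0.24 in the early nephron, and fold changes are to be read against that shift.

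Gate by gate, the members' calls stood beside these shares of all genes. Among epithelial gates, nephron progenitors had 4 members higher and 1 lower, where 32.1% of all genes were higher and 13.2% lower, and the early nephron had 2 higher and 0 lower (32.7% and 10.4%). Podocytes had 2 higher and 1 lower (25.9% and 13.4%), proximal tubule 2 and 4 (32.9% and 12.5%), the loop of Henle 3 and 2 (29.9% and 9.42%) and distal tubule 1 and 1 (25.2% and 11.6%). Ret-Wnt11 ureteric epithelium had 2 and 2 (24.6% and 10.3%), collecting duct 1 and 2 (23.4% and 6.93%) and intercalated cells 1 and 2 (26.5% and 10.2%). Endothelium had 5 higher and 1 lower (26.5% and 12.6%). Among mesenchymal gates there were 2 higher and 0 lower in stroma with Foxd1 (25.3% and 11.4%), stroma without Foxd1 (25.1% and 11.6%), Rgs5-Abcc9 mesenchyme (22.2% and 10.5%) and smooth muscle (20.3% and 7.77%), and 1 higher and 0 lower in Ren1 mesenchyme (12.1% and 6.05%). Macrophages had 2 higher and 1 lower beside Rbpj (20.7% and 13.2%), other leukocytes 3 and 2 (17.3% and 14.2%) and erythroid cells none (4.12% and 2.39%).

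**Figure D1:**
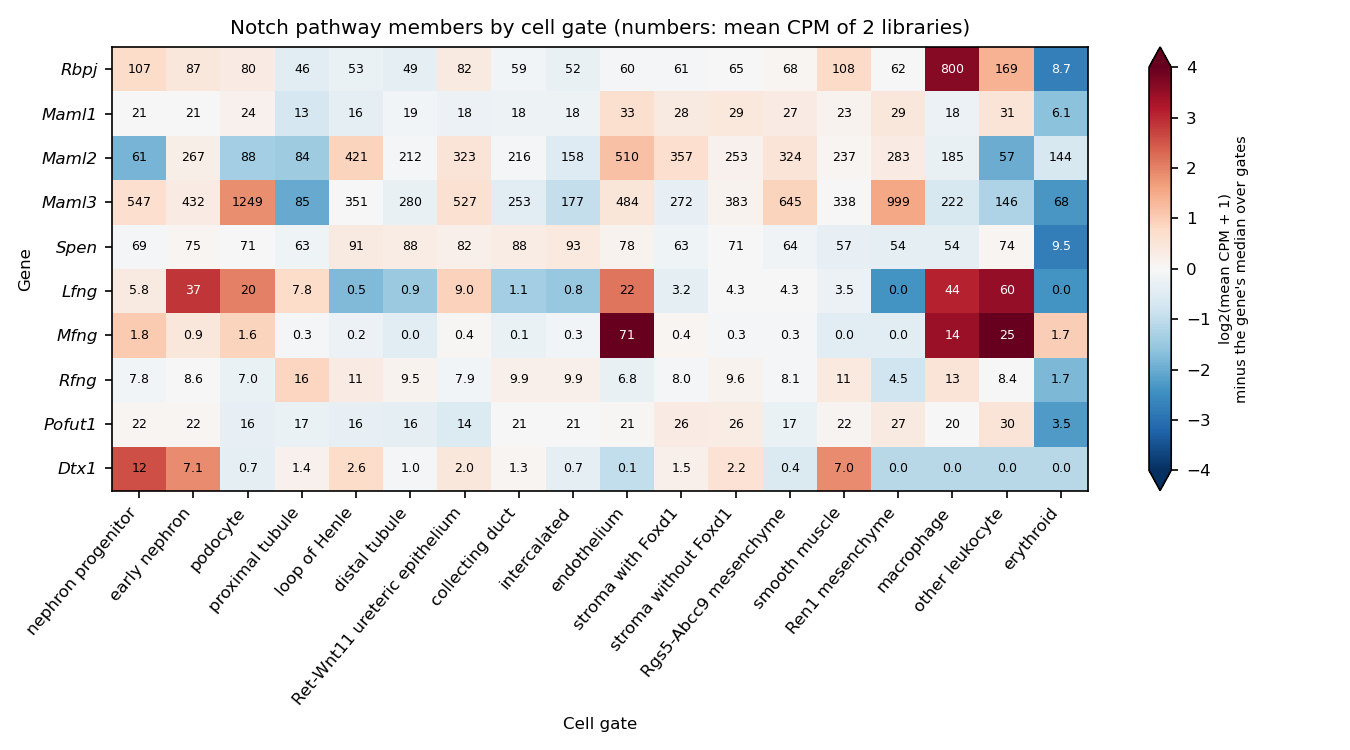
Heat map of the 10 genes (rows) in the 18 gates (columns); each number is the mean CPM of the 2 libraries, and the colour is log2(mean CPM + 1) minus the gene's median over gates. Rbpj stands out in macrophages at 800 CPM, Mfng in endothelium at 71 CPM and Maml3 in podocytes at 1249 CPM.

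Rbpj, the DNA-binding partner of all Notch receptors, had its highest level in macrophages, the resident phagocytes that were gated on genes including C1qa. It was counted there at 944 CPM in library 1 (1189 counts in 102 cells) and 656 CPM in library 2 (413 counts in 34 cells), a mean of 799.8 CPM. The next gate, other leukocytes, stood at 195 and 142 CPM, so the level in macrophages was 4.83 and 4.61 times as high. Against proximal tubule the ratio was 20.3 and 14.2. This gate was singled out with its Rbpj level already known, so these values are a description without a test. Both libraries placed macrophages first, with no overlap with any other gate.

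Below the leukocytes came a narrow range. Smooth muscle had 143 and 74.1 CPM of Rbpj and nephron progenitors, the Six2 and Cited1 cells that give rise to nephrons, had 108 and 105 CPM. The early nephron followed at 93.4 and 80.6 CPM, Ret-Wnt11 ureteric epithelium at 83.7 and 80.5, and podocytes, the filtering cells of the glomerulus, at 92.6 and 67.6. From Rgs5-Abcc9 mesenchyme (69.9 and 65.2 CPM) the order ran through stroma without Foxd1 (65.5 and 63.9), Ren1 mesenchyme (55.9 and 68.4), stroma with Foxd1 (64.4 and 58.6) and endothelium (62.6 and 56.9) to collecting duct (58.0 and 59.6). These gates overlapped with their neighbours in that order. Lowest were the loop of Henle at 54.0 and 52.2 CPM, intercalated cells at 49.9 and 53.8, distal tubule at 46.6 and 51.1 and proximal tubule at 46.6 and 46.2, before erythroid cells with 5 and 0 counts. Of the 17 pairs of neighbours in the order, 12 overlapped in their libraries' values. Cre from Foxd1 is expected in stroma. For Rbpj in cells of that lineage, the cell type and the state of the conditional allele cannot be told apart. Barcodes under 100 UMIs, which hold free RNA, had 92.0 and 57.7 CPM of Rbpj, a level like that of many gates. Haemoglobin RNA in the cells of the other gates stood at 0.44% to 2.63% of its level in those barcodes. Cells that passed the erythroid gate beside another had been left out, so this range was partly set by the gating. It does not measure how much free RNA the cells hold. In the left-out cells that passed gates of several lineages, haemoglobin RNA stood at 129% and 95.1% of that level.

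**Figure D2:**
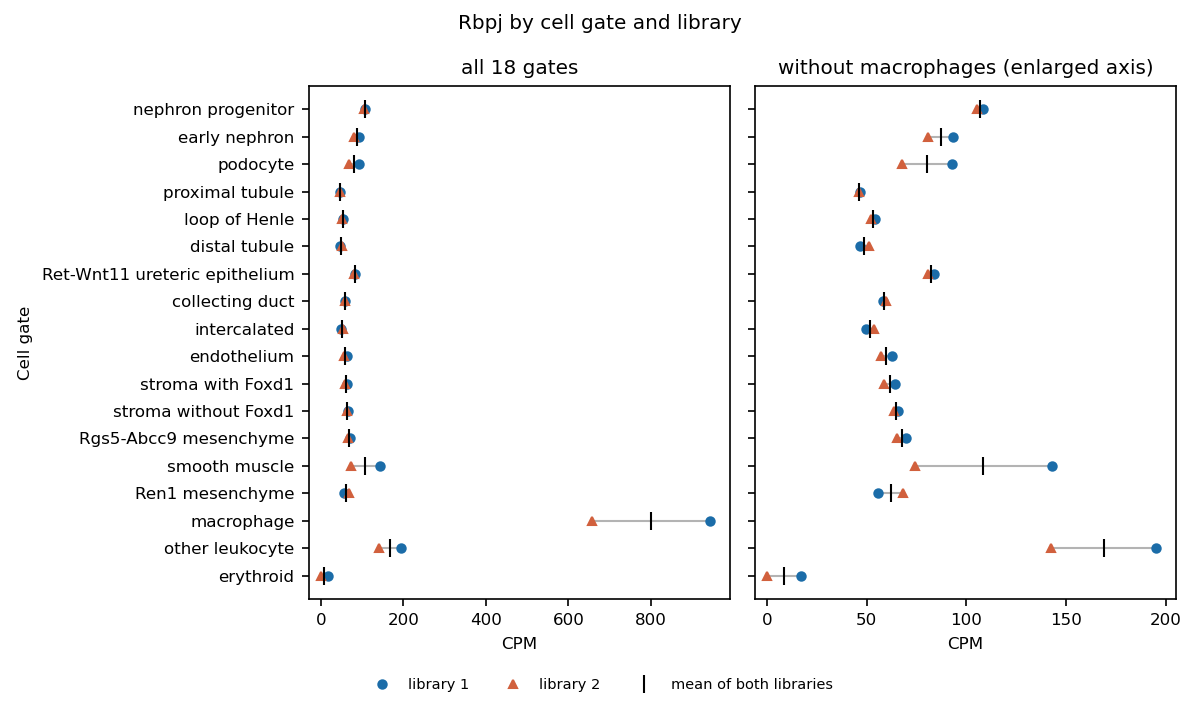
Rbpj in CPM (horizontal axis) by gate (rows), with a circle for library 1, a triangle for library 2 and a bar for their mean; the right panel leaves out macrophages to enlarge the axis. Macrophages lie at 944 and 656 CPM, and all other gates at or under 195 CPM.

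Rbpj was called higher in nephron progenitors by 0.49 ± 0.14 on the log2 scale (fold change and its standard error; edgeR adjusted p = 0.00577), in smooth muscle by 0.53 ± 0.17 (edgeR adjusted p = 0.0168) and in other leukocytes by 1.34 ± 0.21 (edgeR adjusted p = 1.35e-05). It was called lower in 6 gates, with the lowest fold change in proximal tubule at -0.61 ± 0.16 (edgeR adjusted p = 0.00225). In library 2 alone, without a test, all 6 of these fold changes turned sign, from 0.058 in proximal tubule to 0.29 in distal tubule. The mean of the other gates contains the macrophage level. In a fit without macrophages, 4 of these 9 calls remained: nephron progenitors, smooth muscle and other leukocytes as higher, and proximal tubule as lower. The calls in loop of Henle, distal tubule, collecting duct, intercalated cells and endothelium were lost there. Smooth muscle also lost its call when each cell was thinned to 3000 UMIs (edgeR adjusted p = 0.115), as did proximal tubule (0.0823). Within smooth muscle, cells with a UMI of the gate marker Actg2 had 167 and 109 CPM of Rbpj (62 and 21 cells). Cells without it had 109 and 66.8 CPM (45 and 96 cells). This split was chosen after the levels had been seen. Nephron progenitors had 2.32 and 2.28 times the Rbpj level of proximal tubule in the 2 libraries.

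The high Rbpj level of macrophages was spread unevenly over their cells. In library 1 the median cell had 418 CPM, the upper quartile began at 1055 CPM and the highest cell had 6923 CPM, and 8 of 102 cells had no Rbpj UMI. In library 2 the median was 197 CPM and the highest cell had 3898 CPM, and 7 of 34 cells had none. The 11 highest cells of library 1 held 47.7% of its macrophage Rbpj UMIs and the 4 highest of library 2 held 51.6%. At least 1000 CPM was reached by 26 cells (25.5%) and 5 cells (14.7%) among macrophages and by 0 cells among nephron progenitors, early nephron, endothelium, smooth muscle, podocytes and proximal tubule in both libraries.

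Thinned to 3000 UMIs per cell, 72 of 102 macrophages held an Rbpj UMI in library 1 (70.6%, exact 95% interval 60.7 to 79.2) and 15 of 34 in library 2 (44.1%, 27.2 to 62.1). Before thinning the shares were 92.2% and 79.4%. Proximal tubule cells, thinned likewise, gave 14.0% (11.0 to 17.6) and 13.1% (9.47 to 17.5), with median depths of 29546.5 and 41647 UMIs against 11793 and 17448 in macrophages. These intervals cover counting error only.

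Within macrophages, the cells high in Rbpj were those high in Mrc1, the mannose receptor, and F13a1, a clotting factor subunit made by tissue macrophages. Cells above the median of Mrc1 had 1442 CPM of Rbpj in library 1 (51 cells) and 1019 CPM in library 2 (17 cells), against 347 and 226 CPM in the rest. For F13a1 the values were 1508 and 1092 CPM above the median against 319 and 237 CPM at or below it. Cells with a UMI of Lyve1, a hyaluronan receptor of perivascular macrophages, had 1737 and 1068 CPM against 416 and 434 CPM without one, and for Ednrb, an endothelin receptor, the ratio of cells with to cells without was 4.23 and 4.21. In the opposite direction, cells above the median of the chemokine receptor Cx3cr1 had 800 and 473 CPM of Rbpj against 1111 and 942 CPM, and for Tmem119, best known from microglia, the ratio was 0.58 and 0.54.

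These splits were chosen after the levels had been seen, and 17 genes were examined. Of those, 14 left at least 5 cells on each side in both libraries. Rbpj was higher on the high side in both libraries for 9 genes, by at least 2-fold for Mrc1, F13a1, Lyve1 and Ednrb, lower in both for Cx3cr1 and Tmem119, and opposite between libraries for 3. Depth differed between the sides, with medians of 12296 and 9820 UMIs above and below the Mrc1 median in library 1 and 20217 and 13148 in library 2. Mrc1 and Cx3cr1 also served as gate markers. No test was made over cells.

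**Figure D3:**
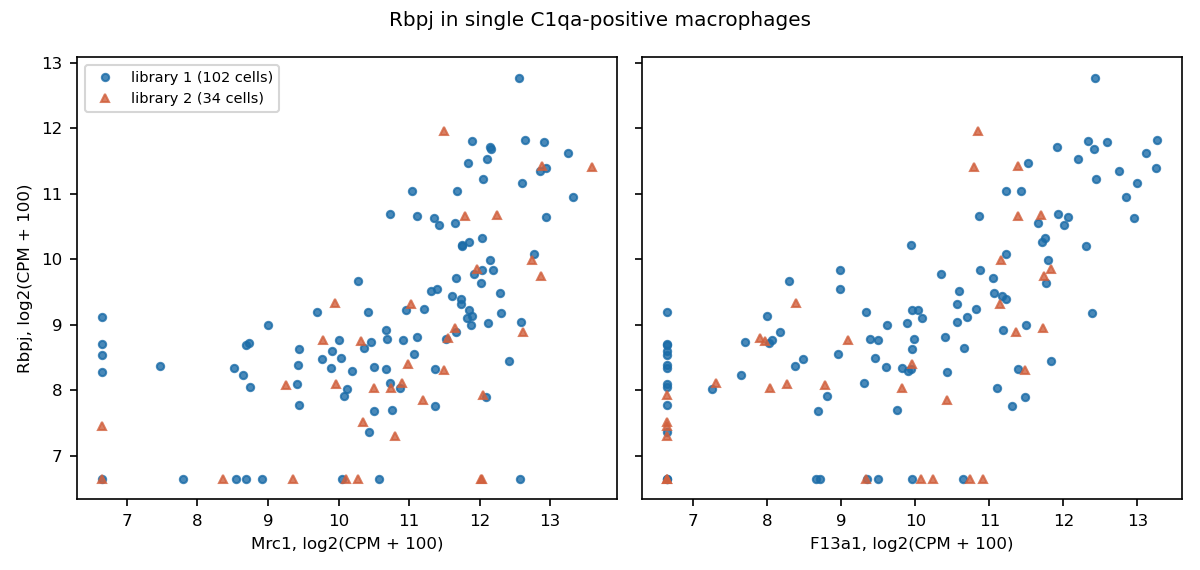
Rbpj in single macrophages (vertical axis, log2 of CPM + 100) against Mrc1 (left) and F13a1 (right) on the same scale, with 102 cells of library 1 as circles and 34 cells of library 2 as triangles; points at the lower edge or the left edge had no UMI. Cells with the highest Rbpj lie to the right in both panels.

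Other pathway genes were called in both directions in macrophages. Hes1, a target of Notch, was counted at 9.53 and 7.94 CPM and was called lower than in the other gates by a log2 fold change of -3.59 (edgeR adjusted p = 7.17e-10). Hes5 and Nrarp, further targets, had 0 counts in both libraries. The receptor Notch2 stood at 85.7 and 77.8 CPM and was called higher by 0.57 (edgeR adjusted p = 0.0201), and Adam17, a protease that cuts Notch among other surface proteins, at 121 and 118 CPM, higher by 1.64 (edgeR adjusted p = 9.67e-12). Dtx4, a relative of Dtx1, stood at 32.5 and 36.5 CPM, higher by 3.21 (edgeR adjusted p = 1.12e-08), while Dtx1 itself had 0 counts. Of the 61 tested genes of the wider pathway, 13 were called higher and 12 lower in macrophages, where 20.7% of all genes were called higher and 13.2% lower. Defining markers of other cell types, S100a8 apart, were low in the macrophage sums: Foxd1, Ret, Myh11, Krt5 and Upk3a had 0 counts in both libraries. Six2 and Pdgfra had at most 1.59 CPM in a library and Col1a1 had 4.76 CPM in both. S100a8 apart, the highest of the others were the endothelial gene Pecam1, at 29.4 and 11.1 CPM, and the loop of Henle gene Slc12a1, at 19.8 and 11.1 CPM. The neutrophil gene S100a8 was counted there at 132 CPM in library 1 and 4.76 CPM in library 2. Its part in the result was not tested.

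The mastermind-like coactivators bridge Rbpj and the Notch intracellular domain to the transcription machinery. By the mean of the libraries, Maml2 was highest in endothelium and Maml3 in podocytes. The mean of Maml1 was also highest in endothelium, at 33.3 and 33.6 CPM, but neither library alone placed that gate first. Ren1 mesenchyme was first in library 1 at 34.9 CPM, and other leukocytes in library 2 at 37.6 CPM. Their ranges overlapped that of endothelium. Erythroid cells apart, Maml1 was lowest in proximal tubule, at 13.4 and 12.4 CPM. Maml1 was called higher in endothelium by 0.62 ± 0.12 (edgeR adjusted p = 0.000148) and in stroma without Foxd1 by 0.37 ± 0.13 (0.0264). It was called lower in proximal tubule by a log2 fold change of -0.66 ± 0.14 (edgeR adjusted p = 0.000219), in the loop of Henle (-0.42) and in Ret-Wnt11 ureteric epithelium (-0.45). Among its calls, only that in endothelium held under every alternative setting run.

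Maml2 was highest in endothelium, at 475 and 546 CPM, and in the loop of Henle, at 470 and 373 CPM. It was called higher there by 1.35 ± 0.21 (edgeR adjusted p = 5.80e-06) and 1.14 ± 0.21 (edgeR adjusted p = 8.13e-05), and also in stroma with Foxd1, where it stood at 323 and 391 CPM, by 0.81 ± 0.22 (0.00479). In Rgs5-Abcc9 mesenchyme, at 297 and 351 CPM, it was called higher by 0.62 ± 0.23 (edgeR adjusted p = 0.0387), a call that was lost with DESeq2, with ambient counts subtracted and without the library block. It was low in other leukocytes (65.1 and 48.3 CPM), nephron progenitors (45.8 and 76.0), proximal tubule (85.4 and 83.4) and podocytes (83.3 and 92.4), and was called lower in each of these 4 gates, by -1.84 ± 0.43, -1.88 ± 0.29, -1.21 ± 0.27 and -1.33 ± 0.28. Endothelium had 10.4 and 7.19 times the level of nephron progenitors, and no library value of one gate reached the other. The 83 counts of Maml2 in erythroid cells of library 1 stand against 0 in library 2.

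Maml3 was highest in podocytes, at 1319 and 1180 CPM, with a fold change of 1.96 ± 0.15 (edgeR adjusted p = 3.28e-11). Ren1 mesenchyme, which expresses renin and surrounds the vessel that feeds the glomerulus, had 769 and 1229 CPM, higher by 1.60 ± 0.17 (edgeR adjusted p = 4.28e-08). These gates overlapped. It was also called higher in Rgs5-Abcc9 mesenchyme (636 and 654 CPM, 0.90 ± 0.17), nephron progenitors (522 and 572 CPM, 0.70 ± 0.17), Ret-Wnt11 ureteric epithelium (510 and 543 CPM, 0.54 ± 0.18) and endothelium (466 and 502 CPM, 0.50 ± 0.17). Proximal tubule stood at 97.8 and 72.0 CPM and was called lower by a log2 fold change of -1.97 ± 0.22 (edgeR adjusted p = 2.45e-08). Podocytes and proximal tubule, which both arise from the early nephron, differed 13.5 and 16.4 times. Further lower calls were in other leukocytes (-1.13), intercalated cells (183 and 171 CPM), macrophages (-0.70) and collecting duct (-0.52). The calls in endothelium, macrophages, collecting duct and Ret-Wnt11 ureteric epithelium were each lost with ambient counts subtracted.

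Maml2 and Maml3 span 411 kb on chromosome 9 and 419 kb on chromosome 3, and Rbpj spans 191 kb on chromosome 5, where the median feature spans 12.3 kb (GENCODE M21, GRCm38). The sources used here do not say whether reads in introns were counted. Counts of long genes would include more of such reads, so levels of these genes are compared between gates and not with each other.

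**Figure D4:**
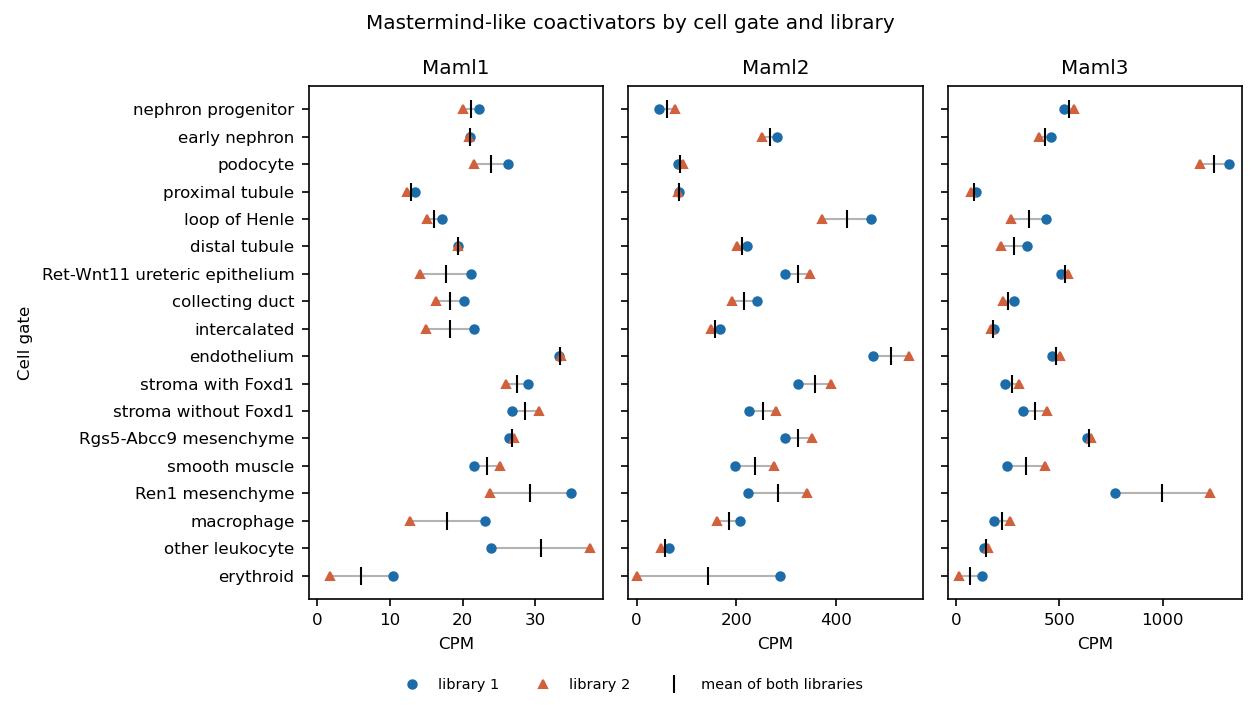
Maml1, Maml2 and Maml3 in CPM (horizontal axes, a scale for each gene) by gate (rows), with a circle for library 1, a triangle for library 2 and a bar for their mean. Maml2 is highest in endothelium (475 and 546 CPM), Maml3 in podocytes (1319 and 1180 CPM).

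Spen, a large RNA-binding corepressor that docks on Rbpj and also acts in X-chromosome silencing, was even across gates. Erythroid cells apart, its mean lay between 54.0 CPM in macrophages and 93.2 CPM in intercalated cells. It was called higher in distal tubule by 0.54 ± 0.12 (edgeR adjusted p = 0.000688), in the loop of Henle by 0.49 ± 0.10 (0.000402), in intercalated cells by 0.49 ± 0.11 (0.000919) and in collecting duct by 0.32 ± 0.11 (0.0305), and lower in no gate. Of these, the loop of Henle kept its call under all alternatives, and distal tubule, intercalated cells and collecting duct lost theirs when cells were thinned (edgeR adjusted p = 0.207, 0.674 and 0.228). Spen stood at 88.2 and 93.3 CPM in the loop of Henle and at 91.2 and 84.7 CPM in distal tubule. Of its 17 pairs of neighbouring gates, 16 overlapped.

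The fringe enzymes had different highest gates, and several gates held more than 1 of them. Mfng was highest in endothelium, the lining of vessels and glomerular capillaries, at 68.0 and 74.4 CPM (718 and 821 counts). Other leukocytes had 30.8 and 18.8 CPM (9 and 7 counts) and macrophages 13.5 and 14.3 CPM (17 and 9 counts). Nephron progenitors had 1.67 and 2.01 CPM, and the remaining gates had at most 3.46 CPM in any library, with 0 counts in both libraries in distal tubule, smooth muscle and Ren1 mesenchyme. Endothelium had 2.21 and 3.96 times the level of other leukocytes and 40.7 and 37.1 times that of nephron progenitors. Mfng was called higher in endothelium (edgeR adjusted p = 2.05e-18), other leukocytes (1.87e-06), macrophages (7.73e-07) and nephron progenitors (0.00656). The call in nephron progenitors was lost when cells were thinned (edgeR adjusted p = 0.160). No log2 fold change is given, since it would rest on gates at or near 0 counts and on the prior count.

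Thinned to 3000 UMIs, Mfng was found in 20.9% of endothelial cells in library 1 (exact 95% interval 17.8 to 24.2) and in 123 of 587 in library 2 (17.7% to 24.5%), and unthinned in 55.9% and 62.4%. In smooth muscle, of like depth, 0 of 107 and 0 of 117 cells held a UMI, thinned or not. A count of 0, taking 3 counts as its upper limit, allows a share of cells with a UMI of up to 2.80% and 2.56%, and does not limit the share of cells that express the gene at a low level. Within endothelium Mfng did not follow the ligand Dll4, which marks arterial and sprouting cells: cells with a Dll4 UMI had 67.7 and 73.8 CPM of Mfng, and cells without had 68.3 and 75.1 CPM. Cells with a UMI of Plvap, a gene of fenestrated vessels, had 66.2 and 73.0 CPM against 82.3 and 108 CPM. The side without Plvap held only 95 and 48 Mfng counts, in 111 and 40 cells. It was also less deep, with medians of 6936 and 9919 UMIs against 11074 and 13229. Within nephron progenitors, cells with a UMI of Wnt4, which begins nephron formation, had a lower Mfng level than cells without. It was 0.99 against 3.02 CPM in library 1 (13 and 20 counts) and 0.60 against 3.66 CPM in library 2 (5 and 26 counts). Cells with Wnt4 were also deeper, with medians of 22397.5 and 32838.5 UMIs against 16061.5 and 23398. The splits within endothelium and progenitors were chosen after the levels had been seen.

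Lfng was the fringe of the early nephron and of leukocytes. The early nephron, gated on Lhx1, Wnt4 and Pax8, had 36.2 and 38.0 CPM (864 and 524 counts). Podocytes had 18.8 and 22.2 CPM and endothelium 19.0 and 25.4 CPM. Other leukocytes had 71.9 and 48.3 CPM (21 and 18 counts) and macrophages 28.6 and 58.8 CPM (36 and 37 counts), both with wide spread between libraries. Proximal tubule had 7.02 and 8.60 CPM, Ret-Wnt11 ureteric epithelium 10.8 and 7.28, and nephron progenitors 5.92 and 5.64. In the loop of Henle it was 0.71 and 0.39 CPM (9 and 5 counts), so within the nephron the level fell from the early nephron to the loop by a ratio of 50.8 and 98.5.

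Lfng was called higher in 7 gates and lower in none. For the low gates the lack of a lower call is no result. The mean of the other gates held gates at 0 counts, and the log2 fold change in the loop of Henle had a standard error of 7107. The edgeR adjusted p was 6.00e-13 in the early nephron, 1.00e-08 in podocytes, 1.99e-10 in endothelium, 1.17e-09 in macrophages and 5.28e-09 in other leukocytes, and these 5 calls held under every alternative run. The calls in proximal tubule (0.000679) and Ret-Wnt11 ureteric epithelium (0.0132) were lost with thinned cells, and that in Ret-Wnt11 ureteric epithelium also with a doubled marker threshold. With the doubled threshold proximal tubule was instead called lower, with a log2 fold change of -0.91 (edgeR adjusted p = 0.00803). That fit held no Ren1 mesenchyme, a gate with 0 Lfng counts, so the mean of the other gates changed as well. Its part in these changes was not tested. Thinned shares of cells with Lfng were 10.6% (exact 95% interval 8.12 to 13.4) and 9.87% (6.29 to 14.6) in the early nephron, against 0.35% and 0 of 339 cells in the loop of Henle.

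Inside the early nephron gate, Lfng was higher in cells with a UMI of a Notch ligand or of the target Hes5. Cells with a UMI of the ligand Dll1 had 62.3 CPM of Lfng in library 1 (206 cells) and 57.4 CPM in library 2 (80 cells). Cells without one had 12.7 and 18.4 CPM (160 and 126 counts). For Jag1 the levels were 38.8 and 40.2 CPM against 6.74 and 6.86 CPM, and for Hes5 64.1 and 63.6 CPM against 18.8 and 19.2 CPM. Cells that still held the progenitor gene Six2 had less, 21.2 and 28.6 CPM against 43.7 and 42.5 CPM. Maml2 moved the same way, at 435 and 371 CPM in cells with Hes5 against 186 and 164 CPM without, and at 138 and 167 CPM with Six2 against 354 and 291 CPM without. Cells with Dll1 were also deeper, with medians of 29394 and 46836.5 UMIs against 20309 and 32573. In library 1 cells with Hes5 were deeper as well, at 29091.5 against 21291 UMIs. CPM scales for depth but does not otherwise remove its differences. These splits, too, were chosen after the levels had been seen, and all 4 made in this gate are given.

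Early nephron set directly against nephron progenitors, a contrast likewise added later, called 2 of the 10 members, where 24.1% of all genes were called, 14.7% higher and 9.40% lower. Lfng was higher (edgeR adjusted p = 7.43e-09), with 6.12 and 6.75 times the progenitor level. Maml2 was higher by 2.06 ± 0.34 (edgeR adjusted p = 3.92e-05), with 6.15 and 3.31 times the level. Rbpj (-0.37 ± 0.20, 0.185), Maml3 (-0.42 ± 0.25, 0.258), Mfng (-1.08 ± 0.43, 0.0707) and Dtx1 (-0.81 ± 0.38, 0.138) gave negative fold changes that did not pass, with the adjusted p of the same edgeR fit after each error. Maml1, Spen, Rfng and Pofut1 lay between -0.09 and 0.06.

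Rfng was low and even, and stood out in proximal tubule, the main reabsorbing segment, at 15.6 and 17.3 CPM (294 and 254 counts). It was called higher there by 1.12 ± 0.15 (edgeR adjusted p = 3.16e-07) and in no other gate. Both values lie above those of every other gate. Its lowest levels outside erythroid cells were in Ren1 mesenchyme, at 3.49 and 5.58 CPM (1 and 4 counts), and endothelium, at 5.59 and 7.98 CPM. Rfng was not called lower in endothelium (-0.42 ± 0.19, edgeR adjusted p = 0.0861). Of the UMIs of all 3 fringes, Mfng made up 73.4% and 69.0% in endothelium, Lfng 81.7% and 77.6% in the early nephron, and Rfng 68.5% and 65.6% in proximal tubule and 93.0% and 94.8% in the loop of Henle.

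**Figure D5:**
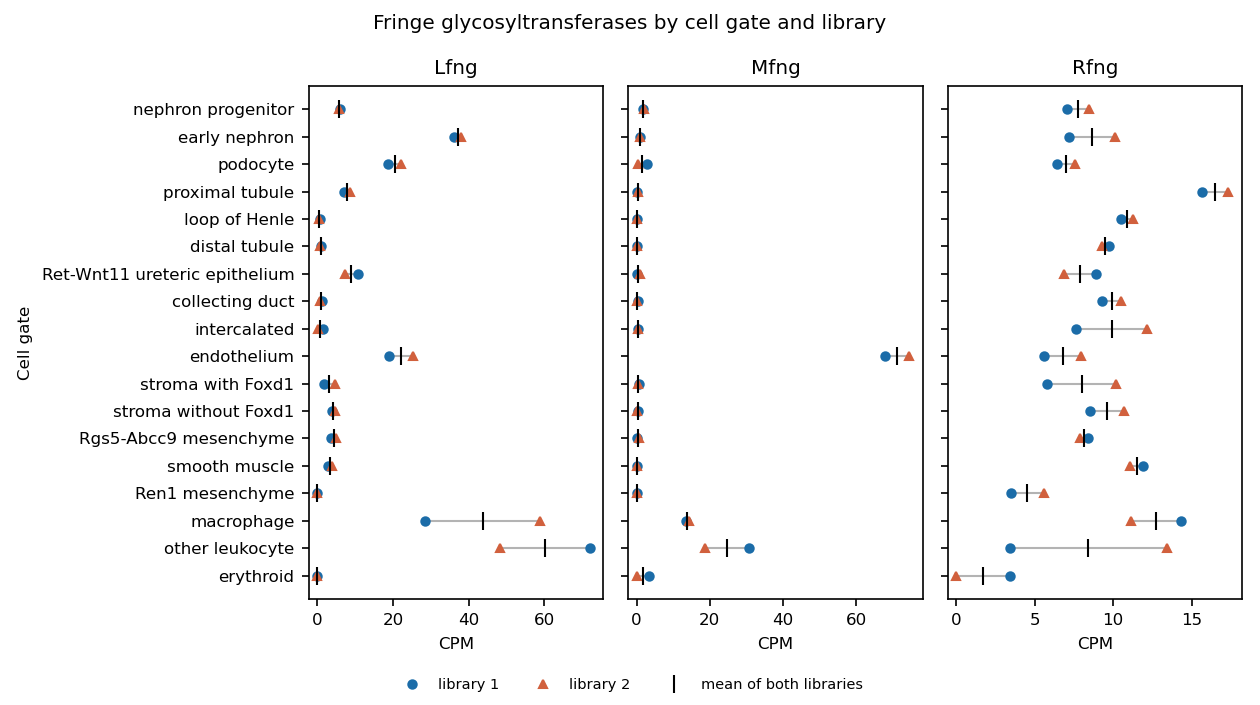
Lfng, Mfng and Rfng in CPM (horizontal axes, a scale for each gene) by gate (rows), with a circle for library 1, a triangle for library 2 and a bar for their mean. Mfng stands at 68.0 and 74.4 CPM in endothelium and at or under 30.8 CPM elsewhere, Lfng is high in early nephron, podocyte, endothelium and leukocyte gates, and Rfng is highest in proximal tubule.

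Pofut1, which adds the fucose that fringes extend, was broad. Its mean lay between 13.6 CPM in Ret-Wnt11 ureteric epithelium and 29.9 CPM in other leukocytes, erythroid cells apart. It was called higher in stroma with Foxd1 (23.8 and 28.5 CPM) by 0.43 ± 0.14 (edgeR adjusted p = 0.0177) and in stroma without Foxd1 (26.1 and 25.3 CPM) by 0.39 ± 0.14 (0.0314), and lower in Ret-Wnt11 ureteric epithelium (14.9 and 12.4 CPM) by a log2 fold change of -0.66 ± 0.19 (edgeR adjusted p = 0.00870). All 3 calls were lost when cells were thinned, and the sign of the last turned there, to 0.59.

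Dtx1, a ubiquitin ligase that binds the Notch intracellular domain, was rare. It was highest in nephron progenitors, at 11.3 and 12.3 CPM (224 and 190 counts). The early nephron followed at 6.96 and 7.19 CPM and smooth muscle at 7.43 and 6.55 CPM (10 and 13 counts). The smooth muscle counts came from different cells in the libraries. Cells with a UMI of Actg2, a marker of that gate, held 9 in library 1 (62 cells) and 0 in library 2 (21 cells). Cells without it held 1 (45 cells) and 13 (96 cells). The loop of Henle had 3.09 and 2.16 CPM, and macrophages, other leukocytes, Ren1 mesenchyme and erythroid cells had 0 counts. Dtx1 was called higher in nephron progenitors (edgeR adjusted p = 3.76e-09), the early nephron (7.83e-07), smooth muscle (0.000226) and the loop of Henle (0.00555). The last was lost with a doubled marker threshold, in a fit that held no Ren1 mesenchyme. Nephron progenitors had 9.27 and 7.52 times the Dtx1 level of proximal tubule. Thinned shares were 4.18% (exact 95% interval 2.77 to 6.02) and 4.17% (2.40 to 6.68) in progenitors, against 0 of 666 and 0 of 587 endothelial cells, which allows up to 0.450% and 0.511% of cells with a UMI at that depth. Unthinned, endothelium held 0 and 2 Dtx1 counts. Within progenitors, cells with Cited1, a gene of the least committed progenitors, had 2.26 and 5.46 times the Dtx1 level of cells without. The side without Cited1 held only 10 and 4 Dtx1 counts, in 97 and 56 cells. Between progenitors with and without a UMI of Wnt4, Dtx1 stood at 11.0 against 11.9 CPM in library 1. In library 2 it stood at 10.4 against 14.5 CPM. All of these splits were chosen after the levels had been seen.

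Since Cre from Foxd1 is expected in stroma, stroma was divided by a Foxd1 UMI, 372 and 436 cells with and 581 and 392 without, a contrast also added later. Rbpj stood at 64.4 and 58.6 CPM with Foxd1 and at 65.5 and 63.9 CPM without, a log2 fold change of -0.07 ± 0.21 (edgeR adjusted p = 1). No member was called, where 1.97% of all genes were, 0.825% higher and 1.15% lower. The sizes seen for the members ranged from -0.57 for Dtx1 to 0.51 for Maml2. This divides cells that now hold Foxd1 RNA and not those whose ancestors expressed Cre, so it is no measure of recombination. Podocytes held Foxd1 too, at 207 and 176 CPM.

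Of the wider pathway, 61 of 62 listed genes were tested in 18 gates, and 410 of 1098 tests were called, 273 higher and 137 lower, or 37.3%. Over all genes and gates 34.1% were called, 23.7% higher and 10.4% lower, with a median log2 fold change of 0.06, so the pathway's share lies near the background and is no result about the pathway. The counts and medians of its lists below are to be read against the same shares and the same median. The receptors had 22 higher and 21 lower calls in 72 tests, with a median of -0.0024. Notch4 (81.8 and 86.7 CPM) and Notch1 (161 and 163 CPM) were called higher in endothelium, where Mfng was highest, while Notch2 was lower there (8.52 and 8.80 CPM). Notch3 was highest in Ren1 mesenchyme (287 and 416 CPM), where Maml3 was also high. The ligands had 25 higher and 4 lower calls in 90 tests, with a median of 0.16. Dll4 (54.0 and 41.4 CPM) and Jag2 (44.1 and 41.4 CPM) were called higher in endothelium, Dll1 (55.1 and 45.3 CPM) in the early nephron and Dlk1, an atypical ligand, in stroma with Foxd1 (167 and 85.5 CPM).

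The target genes had 41 higher and 6 lower calls in 108 tests, with a median log2 fold change of 0.46. Hes5 was called higher in the early nephron, at 45.2 and 35.1 CPM, and Hey2 (48.9 and 133 CPM) and Nrarp (108 and 198 CPM) in Ren1 mesenchyme. Heyl had 0 counts in other leukocytes and was called lower there. The receptor proteases had 37 higher and 33 lower calls in 162 tests, with a median of 0.0022, among them Adam17 in macrophages (above), Psen2 in Rgs5-Abcc9 mesenchyme (51.3 and 45.1 CPM) and Aph1c, lower in endothelium (0.66 and 1.09 CPM).

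The other enzymes that act on the same repeats had 28 higher and 14 lower calls in 126 tests, with a median of 0.047. Eogt, which adds N-acetylglucosamine, was called higher in endothelium beside Mfng, at 142 and 131 CPM (log2 fold change 4.58, edgeR adjusted p = 6.48e-19). Gxylt2, a xylosyltransferase, was called higher in the early nephron beside Lfng, at 149 and 117 CPM (4.13, edgeR adjusted p = 5.04e-12). Poglut2 and Poglut3 were called lower in other leukocytes, on at most 2 counts in a library. The other Rbpj coactivators had 20 higher and 12 lower calls in 126 tests and a median of -0.015, with Cdk8 higher in erythroid cells (993 and 301 CPM), Ep300 higher in other leukocytes (158 and 142 CPM), and Kat2b lower (17.5 and 10.4 CPM) and Ccnc higher (33.6 and 30.3 CPM) in stroma without Foxd1. The other corepressors had 54 higher and 19 lower calls in 216 tests and a median of 0.046, with Rita1 higher in distal tubule (26.2 and 16.4 CPM), Cir1 higher in erythroid cells (48.4 and 40.0 CPM) and Fhl1 at 0 counts, and called lower, in other leukocytes. The ubiquitin and trafficking genes had 46 higher and 28 lower calls in 198 tests and a median of 0.023, with Dtx4, Dtx3l (50.8 and 20.6 CPM) and Neurl1a (13.5 and 27.0 CPM) higher in macrophages and Mib2 higher in podocytes (26.0 and 26.2 CPM).

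The genes whose levels ran most like each member's over the 36 sums of gate and library were found among 12190 genes with a mean of at least 5 CPM that were no gate markers. The likeness is Pearson's r of log2(CPM + 1). It is a description, since sums share libraries and erythroid cells are low for most genes. Rbpj was closest to Ntpcr (r = 0.94), Clta (0.93) and Abhd12 (0.92), Maml1 to Bmpr2, Ppil4 and Ptpn12 (0.91 each), Maml2 to Pde6d, Zrsr2 and Dnajc10 (0.86 each) and Maml3 to Fmnl2 (0.90), Vezf1 (0.89) and Isyna1 (0.88). Spen was closest to Sdhaf2, Arih1 and Sbno1 (0.97 each), Pofut1 to Xrn1 (0.94), 1810030O07Rik (0.94) and C1d (0.93) and Rfng to Tm2d2 (0.88), Otub1 (0.88) and Tmem120a (0.87). Lfng was closest to Cotl1 (0.86), Rassf2 (0.83) and Baz1a (0.82), Mfng to Hlx, Gch1 and Inpp5d (0.89 each) and Dtx1 to Dpp6 (0.82), Minar2 (0.81) and Clip4 (0.80). Between members, r was highest for Maml1 and Pofut1 (0.86) and Spen and Pofut1 (0.85), and lowest for Mfng and Dtx1 (-0.37).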

How the data were processed

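The authors deposited raw UMI counts per gene and barcode, made with Cell Ranger 4 per the file headers and with Cell Ranger 6.0.1 against mm10 per the submitters' processing notes. Which of the 2 versions made these files, and whether intronic reads were counted, is not given in the sources used here. Total depth was 200331687 UMIs in library 1 and 173166168 in library 2, with medians of 15016 and 20007.5 UMIs per kept barcode.

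Doublets were the barcodes with the highest Scrublet scores (scanpy 1.11.5), 0.8% per 1000 barcodes. A gate needed 2 markers, 3 marker UMIs and a summed marker level per 10000 UMIs over a threshold. Thresholds and required markers were set after marker histograms, not member values, had been seen. Cells passing gates of several lineages or none were left out, as were urothelium (15 and 8 cells), glia and adrenal cells. The members, lists and several comparisons were chosen with earlier results of these data known.

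Counts were summed per library and gate (36 sums) and fitted in edgeR 4.0.16 (R 4.3.3) with TMM scaling, filterByExpr, gate means and the library as a block, leaving 17 residual degrees of freedom. The library is a block because the gates of a library share its cells and reads; replicate numbers are only names. Quasi-likelihood F tests were two-sided. The standard error printed is the absolute log2 fold change divided by the square root of F. An F test over all gates called the 9 members other than Rbpj, as it did 95.1% of all genes. Intervals are exact (Clopper-Pearson), and floors use 3 counts. The fit was tested on simulated counts in which only endothelium differed, with no library effect beyond depth. That setting is simpler than these data and does not cover genes absent from several gates.

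Named were all members, their highest and lowest gates and called gates, up to 4 genes per pathway list with the largest called fold change and at least 10 counts per library on the higher side, and 3 most similar genes per member. Of the 32285 identifiers, 32158 were found in GENCODE M21, 31436 with the same symbol. Alternatives were another UMI floor (6000), doubled or halved marker thresholds, doublets kept, DESeq2 1.42.0, no count filter, no block, no macrophages, ambient counts subtracted (10%), thinning, at least 10 cells and single libraries. A fit without erythroid cells and other leukocytes, 2 contrasts between gates and 29 splits within gates, 4 of them with too few cells, were added after seeing the data. Some genes that this rule names are not reported here.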

Additional observations from a re-analysis of the deposited data

How the results depend on the processing

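The count of member calls (56) lay between 48 and 71 in 11 of the 12 alternative fits, and the count of pathway calls (410) between 350 and 503. Without the replicate block there were 48 member calls and 358 pathway calls. Thinning each cell to 3000 UMIs gave 37 member calls in 143 tests and 230 pathway calls. Of the 56 member calls, 30 passed in every alternative fit that gave a value and 26 were lost in at least 1, most often with thinned cells (17 that no longer passed and 1 whose sign turned) or ambient counts subtracted (10).

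In single libraries, which allow no test, the gate with the highest mean was that of the main analysis for 6 to 8 of the 10 members. In library 2 alone the sign turned for 6 Rbpj calls: 0.058 in proximal tubule, 0.19 in loop of Henle, 0.29 in distal tubule, 0.26 in collecting duct, 0.14 in intercalated cells and 0.28 in endothelium, all log2 fold changes against the mean of the other gates. That mean includes erythroid cells, which had 0 Rbpj counts in library 2. In library 1 alone the same values were -0.68, -0.60, -0.79, -0.59, -0.75 and -0.43. The sign also turned for Lfng in proximal tubule with a doubled marker threshold (-0.91, called lower), in a fit that held no Ren1 mesenchyme. For Pofut1 in Ret-Wnt11 ureteric epithelium it turned with thinned cells (0.59). The cause was not tested.

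The mean thinned share of macrophages with an Rbpj UMI was 57.4%, 84.4% at 6000 UMIs per cell and 85.8% without thinning, since it follows depth. The mean Rbpj level of macrophages lay between 656 and 944 CPM over all settings. Gates of under 50 cells, among them macrophages in library 2, other leukocytes and Ren1 mesenchyme, set the limit for low genes: 3 counts equal 10.5 CPM in Ren1 mesenchyme of library 1, so Mfng at its level in nephron progenitors was not detectable there.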
